A study of Copadichromis virginalis x Mchenga conophoros with 6 samples.

Results

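The mitochondrial genome of a vertebrate encodes the core subunits of the respiratory chain, and 6 of these genes, COX1, COX2, ND1, ND4, ND6 and ATP6, were followed in hybrid fish brains whose RNA reads had been divided between the 2 parental alleles. The genes were chosen by name, as the upper-case rows for these symbols in any of the 6 library tables, and all 6 were found among 13212 genes listed in at least 1 library. Of 13 symbols searched for the proteins of the mitochondrial genome, the other 7 were not found in the tables used here. Whole brains came from male F1 hybrids between Copadichromis virginalis, a Lake Malawi cichlid that digs pits, and Mchenga conophoros, which builds sand castles. All animals carried 1 set of nuclear chromosomes from each species and differed in the paradigm they were run through: pit digging, castle building or social isolation, with 2 libraries each. The labels give no age, and they do not name the species of the mother. Whether replicates are separate animals is not stated either, so the spread behind a p-value is that of these samples and may be technical.

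The respiratory chain passes electrons from NADH and succinate to oxygen and uses the energy to pump protons, and ATP synthase turns the proton gradient into ATP. Complexes I, III, IV and V mix subunits made from mitochondrial DNA with subunits made from nuclear genes. Mitochondrial DNA is present in many copies per cell and in most vertebrates is passed on by the mother, whereas nuclear genes come from both parents. Brain tissue depends heavily on this pathway because neurons spend much ATP on ion pumping.

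Each library held between 2155680 and 3294397 allele-assigned counts over 8829 to 11716 listed genes. A table listed a gene only with at least 6 counts on each allele, and in the castle building tables the smallest total was 21. Absence from a table thus cannot be read as 0 reads, and a gene with few C. virginalis reads enters a table only once that allele reaches 6. The libraries of castle building differed from each other by less than sampling noise (chi-square per degree of freedom 0.495; 27.3 between the pit digging libraries, 20.4 between the isolated ones) and were counted as 1 sample, so castle building has n = 1. Of 8 neuronal markers, 7 were listed in all libraries, with summed levels of 3156 to 4142 CPM (counts scaled to the allele-assigned total of the library).

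Nearly all reads of each of the 6 mitochondrial genes carried the M. conophoros allele, in every library that listed the gene. COX1, the catalytic subunit of cytochrome c oxidase, was the only one of the 6 listed in all libraries. It had 49 C. virginalis and 23492 M. conophoros counts in pit digging replicate 1, and 15 and 6785 in replicate 2. In castle building the counts were 7 and 2945 in replicate 1, and 8 and 2986 in replicate 2. In isolated animals they were 33 and 18132 in replicate 1, and 29 and 14029 in replicate 2. The M. conophoros count varied 7.98-fold between the highest and the lowest library, while the C. virginalis share stayed between 0.182 and 0.267%. The castle building counts of 7 and 8 lay just above the listing minimum of 6, which left little room for a lower listed share there.

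COX2, which receives electrons from cytochrome c in the same complex, had the lowest C. virginalis shares of the 6. Pit digging replicate 1 gave 9 C. virginalis and 7505 M. conophoros counts, pit digging replicate 2 gave 9 and 5525, and isolated replicate 2 gave 8 and 4712. The gene was not listed in isolated replicate 1 or in castle building. Its C. virginalis counts of 8 to 9 lay just above the listing minimum of 6.

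The genes ND1, ND4 and ND6 encode subunits of complex I, the NADH dehydrogenase, all in its membrane arm. ND4, one of the proton-pumping subunits, had the most C. virginalis counts relative to its total. Its pairs of C. virginalis and M. conophoros counts were 39 and 1918 in pit digging replicate 1, and 26 and 1161 in replicate 2. In isolated replicate 1 they were 20 and 1298, and in isolated replicate 2 they were 13 and 1285. ND6, which in vertebrates lies on the strand opposite to the other protein genes, had 34 and 5994 in pit digging replicate 1, and 12 and 1679 in replicate 2. The ND6 counts in isolated replicates 1 and 2 were 6 and 1938, and 14 and 1842. The lowest of these, in isolated replicate 1, stood exactly at the listing minimum. ND1, a subunit at the quinone-binding site, was listed only in the deepest library, pit digging replicate 1, with 8 and 1241.

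ATP6, a subunit of the proton channel of ATP synthase, was listed in 3 libraries. It had 7 and 3196 counts in pit digging replicate 1, 10 and 2070 in isolated replicate 1, and 8 and 1853 in isolated replicate 2. ATP6 and ND4 overlap neighbouring genes on the vertebrate mitochondrial genome, and the strand used in counting is not given in the sources used here, so reads could be divided between neighbours and between strands. Reads from nuclear copies of mitochondrial DNA would be counted with these genes, and that part was not tested.

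**Figure D1:**
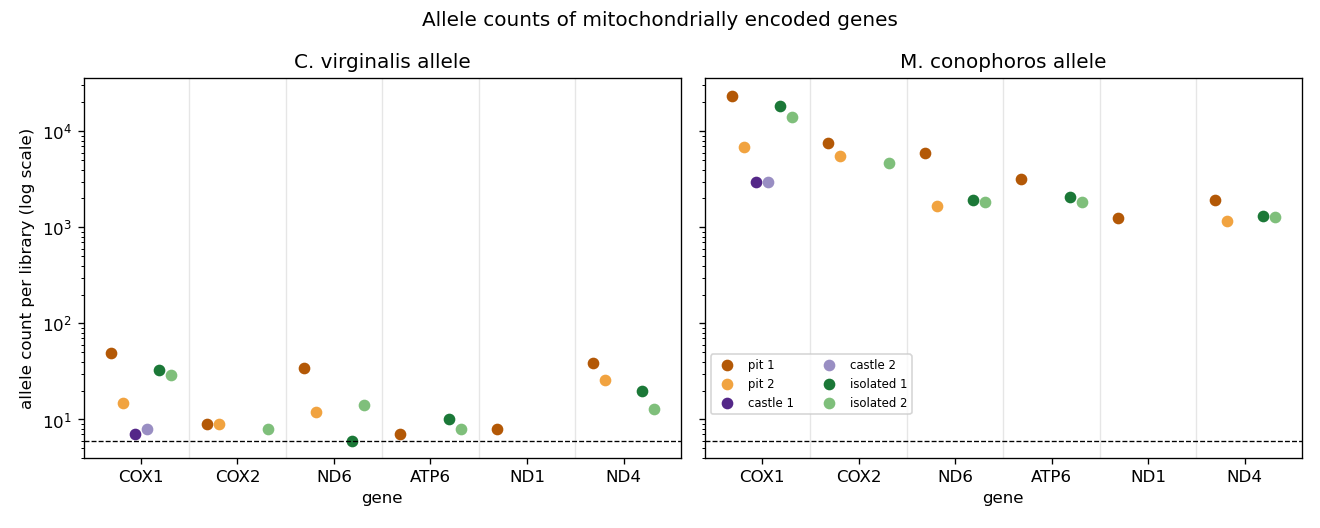
Allele counts per library on a log axis, for the C. virginalis allele (left) and the M. conophoros allele (right); each point is 1 library that listed the gene, and the dashed line marks the listing minimum of 6 counts. The C. virginalis counts lie between 6 and 49 and the M. conophoros counts between 1161 and 23492.

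The size of the C. virginalis remainder differed among the genes. Its share of COX1 was 0.214% ± 0.0257 (SD, n = 5, with castle building as the mean of its libraries). In the 4 pit digging and isolated libraries the share was 1.68% ± 0.531 for ND4 and 0.584% ± 0.201 for ND6 (SD, n = 4 each). Over the 3 libraries that listed each of them, it was 0.151% ± 0.0269 for COX2 and 0.376% ± 0.139 for ATP6 (SD, n = 3 each), and in 1 library it was 0.641% for ND1. Because a listing needs 6 C. virginalis counts, the means of COX2, ATP6 and ND1 leave out the libraries in which that allele may have been rarer.

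The intervals from counting error separated ND4 from COX1 in every library that listed both. In pit digging replicate 1 the exact Clopper-Pearson 95% interval was 1.42 to 2.71% for ND4 and 0.154 to 0.275% for COX1. These intervals cover counting error only. The share of ND4 was 4.86 to 9.93 times that of COX1, and the intervals lay apart in 4 of 4 libraries. At the M. conophoros counts of ND4, 1161 to 1918, the listing minimum of 6 alone puts a listed share above that of COX1. The order of ND4 and COX1 was thus fixed in these libraries. The C. virginalis counts of ND4, 13 to 39, lay above that minimum. ND6 was 1.70 to 3.66 times COX1, with intervals apart in 3 of 4 libraries, isolated replicate 1 being the exception. For ND6 the listing minimum likewise fixed the order in all of these libraries except pit digging replicate 1. In isolated replicate 1 its C. virginalis count stood at the minimum of 6, so 1.70 was the smallest ratio that could be listed there. COX2 lay below COX1 in 3 of 3 libraries, but their intervals overlapped in all 3. For COX1 itself, the pooled share of 0.206% (141 of 68510 counts) lay inside the interval of each of the 6 libraries. The pool was made of these same libraries, with both castle building libraries in it, so this is a description and not a test.

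**Figure D2:**
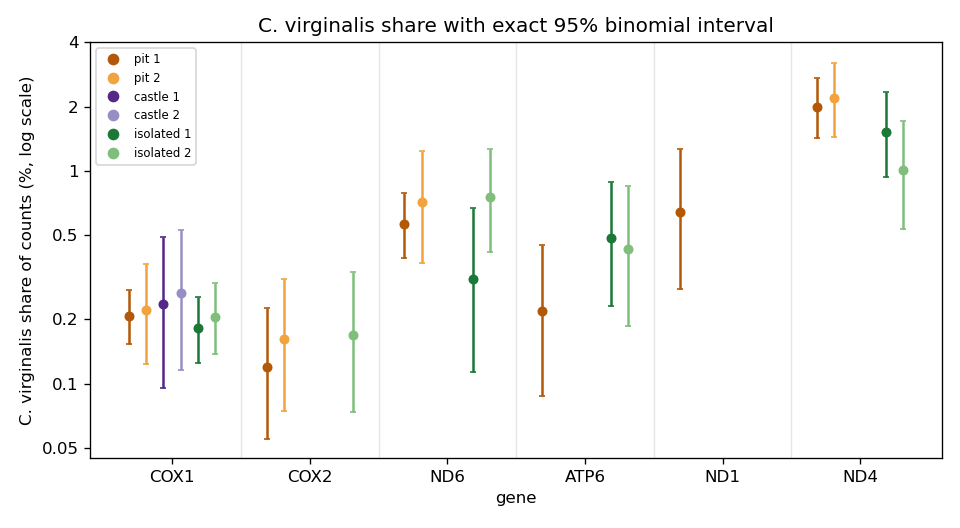
C. virginalis share of the counts of each gene, in percent on a log axis; each point is 1 library that listed the gene, with its exact 95% binomial interval. ND4, between 1.002 and 2.19%, lies above COX1, between 0.182 and 0.267%, in all 4 libraries that listed both.

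The allelic ratio was then tested over all samples in a fit of the 6844 genes that every library listed with a mean total of at least 20. COX1 was the only one of the 6 that entered. Its log2 ratio of C. virginalis to M. conophoros was -8.80 ± 0.23 (SE), a 445-fold difference (edgeR quasi-likelihood test; adjusted p = 1.06e-09 after Benjamini-Hochberg), with M. conophoros higher in 5 of 5 samples. It ranked first of all genes tested, both by p and by the size of the ratio. A listing needs 6 counts on each allele, so only a gene with a large total could show such a ratio. Both ranks thus depend in part on abundance. In that comparison 8.21% of genes passed in either direction and 0.468% passed towards M. conophoros. Under the alternatives tried, the ratio lay between -8.94 and -8.77, with adjusted p up to 4.00e-06.

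A second fit used the 4 pit digging and isolated libraries and the 8254 genes that these listed, which brought in ND4 and ND6. The log2 ratio was -5.92 ± 0.20 for ND4 (SE; 60.5-fold; edgeR adjusted p = 2.10e-07) and -7.45 ± 0.24 for ND6 (174-fold; adjusted p = 3.19e-07). COX1 stood at -8.94 ± 0.19 in this fit (adjusted p = 1.50e-10). These 3 genes had the 3 smallest p-values and the 3 largest ratios of the 8254, each with M. conophoros higher in 4 of 4 libraries. As in the first fit, only genes with large totals could show such ratios, so these ranks depend in part on abundance. Of all genes in this fit, 9.72% passed and 0.666% passed towards M. conophoros. COX2, ATP6 and ND1 were not tested, since at least 1 of the 4 libraries did not list them.

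The shares of the mitochondrial genes stood apart from those of nearly every other listed gene. The median gene had a C. virginalis share of 50.6 to 51.3% in each library. Shares under 5% were found for 7 genes in pit digging replicate 1 (0.0597% of those listed), of which 6 were the mitochondrial genes. The corresponding counts were 4 of 4 genes in pit digging replicate 2, 4 of 5 in isolated replicate 1 and 5 of 6 in isolated replicate 2. In each castle building library 1 of 2 was COX1. Where another row lay under 5%, it was a single identifier, APK84_gr01, which the sources used here do not annotate. Whether it belongs to the mitochondrial genome is therefore not known here. APK84_gt11, with the same prefix, had shares of 97.1 to 98.4% in the pit digging and isolated libraries. Because a listing needs 6 counts on each allele, a gene with a small total could not show a share under 5%. The percentage above counts such genes too, whereas the listed totals of the mitochondrial genes were 1187 to 23541.

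Above these rows lay a gap. The next lowest share was 6.48% in isolated replicate 1, for LOC106674819 (7 and 101 counts), and 6.99% in pit digging replicate 1, for the ribosomal protein gene rpl15 (10 and 133 counts). It was 10.5% in pit digging replicate 2, for LOC105941464. In castle building replicates 1 and 2 it was 9.04 and 9.03%, for the Na,K-ATPase family member atp1b4. In isolated replicate 2 it was 12.2%, for loxhd1 (6 and 43 counts), known in mammals from hair cells. The 6 counts of loxhd1 stood at the listing minimum, so a lower share could not be listed with its M. conophoros count. The upper edge of the gap thus depends in part on the listing rule. Among genes with a symbol listed in all libraries, the 5 nearest to COX1 by mean share over 5 samples were tbc1d32 (23.7% ± 10.4, SD, n = 5), loxhd1 (27.3% ± 16.5), haao (30.2% ± 5.70), arl6ip1 (35.1% ± 5.09) and exoc4 (36.8% ± 3.31). The highest single value of COX1 was below 1%, whereas the lowest single value of tbc1d32 was 11.5%.

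**Figure D3:**
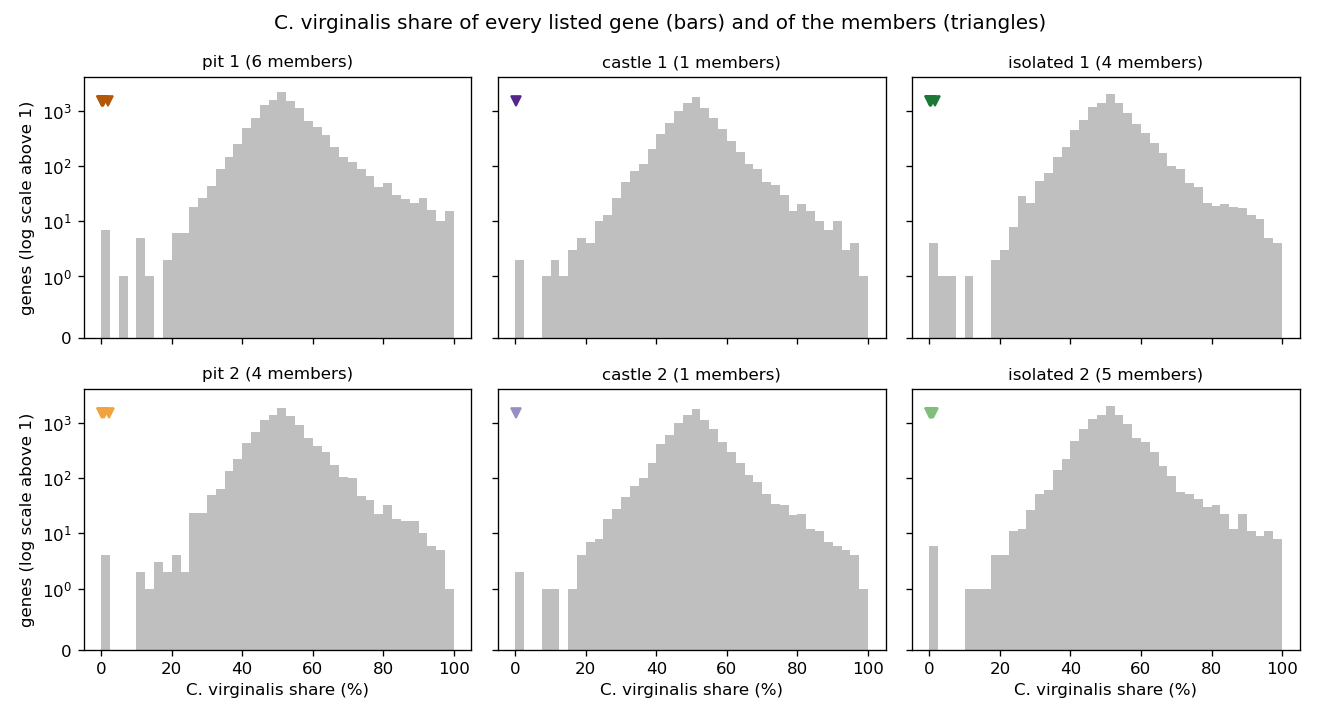
Number of listed genes (log axis above 1) by C. virginalis share in bins of 2.5 percentage points, 1 panel per library, with triangles at the shares of the mitochondrial genes. The bulk of genes centres near 51%, and the mitochondrial genes, at 0.120 to 2.19%, fall in the lowest bin of every panel.

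Whether the allelic ratio of these genes depended on the paradigm was asked next. Pit digging had 0.214% ± 0.00880 of the COX1 counts on the C. virginalis allele and isolation had 0.194% ± 0.0174 (SD, n = 2 each), with 0.252% in the castle building sample. The fit used the rounded mean counts of that sample, which gave 0.269%, above the 0.237 and 0.267% of its libraries. Rounding thus made both differences from castle building larger. Pit digging against castle building differed by -0.36 ± 0.63 (log2, SE; edgeR interaction, adjusted p = 0.916), where 0.161% of genes passed. Castle building against isolation differed by 0.50 ± 0.63 (adjusted p = 0.889), where 0.263% passed. Both comparisons share the castle building sample, which had 7 and 8 C. virginalis counts, so only a large change of this ratio could be seen at this depth.

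Between pit digging and isolation COX1 differed by 0.14 ± 0.38 (log2, SE; edgeR adjusted p = 0.996). No gene passed in this comparison (0%; 1 by DESeq2; 387 of 6844 had an unadjusted p under 0.05). ND4 had shares of 1.99 and 2.19% in the pit digging libraries and of 1.52 and 1.002% in the isolated libraries, so the groups did not overlap. The same was true of COX1 and of 34.1% of all 8254 genes. The ND4 difference was 0.73 ± 0.40 (log2, SE; unadjusted p = 0.0171, edgeR adjusted p = 0.764), where 0% of genes passed (6 by DESeq2; 448 had an unadjusted p under 0.05). The SE held the spread to a lower limit that the test did not use, so the SE and the p need not match. Left-out libraries moved the ND4 difference from 0.46 without isolated replicate 2 to 1.06 without isolated replicate 1. The ND6 shares of 0.564 and 0.710% in pit digging lay inside the range of 0.309 to 0.754% in isolation. Its difference was 0.21 ± 0.47 (edgeR adjusted p = 1), and -0.31 without isolated replicate 1.

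Summed over both alleles, COX1 was among the most abundant genes of the tables. Levels are again in CPM of the library total. They follow expression only as far as reads over informative sites do, and fewer cells and less RNA per cell cannot be told apart in whole-brain RNA. COX1 stood at 7146 and 3031 CPM in pit digging replicates 1 and 2, at 1349 and 1366 in the castle building libraries, and at 8427 and 6179 in isolated replicates 1 and 2. It ranked first of all genes in 3 libraries and at rank 4 in pit digging replicate 2, but at rank 42 in both castle building libraries. Pit digging and isolated values overlapped, and the castle building value lay below all 4 of them.

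Over the 4 pit digging and isolated libraries, COX1 varied 2.78-fold and ND6 2.43-fold between the highest and the lowest, whereas ND4 varied 1.16-fold. COX2 and ATP6 each varied 1.19-fold over the 3 libraries that listed them. COX2 had 2281 and 2467 CPM in pit digging and 2075 in isolated replicate 2. ATP6 ranged from 818 to 972 and ND4 from 529 to 611 CPM. ND6 was at 1830 in pit digging replicate 1 and between 754 and 902 in the other 3 libraries. ND1 had 379 CPM in the single library that listed it.

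The balance between the genes therefore differed from library to library. Pit digging replicate 1 exceeded replicate 2 by 2.36-fold for COX1 and by 2.43-fold for ND6, but by 1.12-fold for ND4, and COX2 was 1.08-fold higher in replicate 2. COX1 had 3.13 counts per COX2 count in pit digging replicate 1, 1.23 in pit digging replicate 2 and 2.98 in isolated replicate 2. Against ND6 it had 3.91 and 4.02 counts in the pit digging libraries and 9.34 and 7.57 in the isolated libraries, so these groups did not overlap, as was the case for 27.5% of the 8253 other genes set against COX1 in the same way. Against ND4 it had 12.03 and 5.73 counts in pit digging and 13.8 and 10.8 in isolation, which overlapped. These ratios were not tested. The muscle creatine kinase ckm, 1 of 7 muscle markers and the only one listed in any library, was listed in pit digging replicate 1 alone, at 1020 CPM. Of 3 liver markers, 1 was listed, the transferrin gene tf, in all libraries. It stood at 380 and 55.7 CPM in pit digging replicates 1 and 2. The tf level was 263 and 265 CPM in the castle building libraries and 221 and 179 in isolated replicates 1 and 2. Of 4 pituitary markers, pomc and cga were listed only in pit digging replicate 2 and isolated replicate 2, with sums of 731 and 1253 CPM. The part of other tissues in these levels was not tested.

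**Figure D4:**
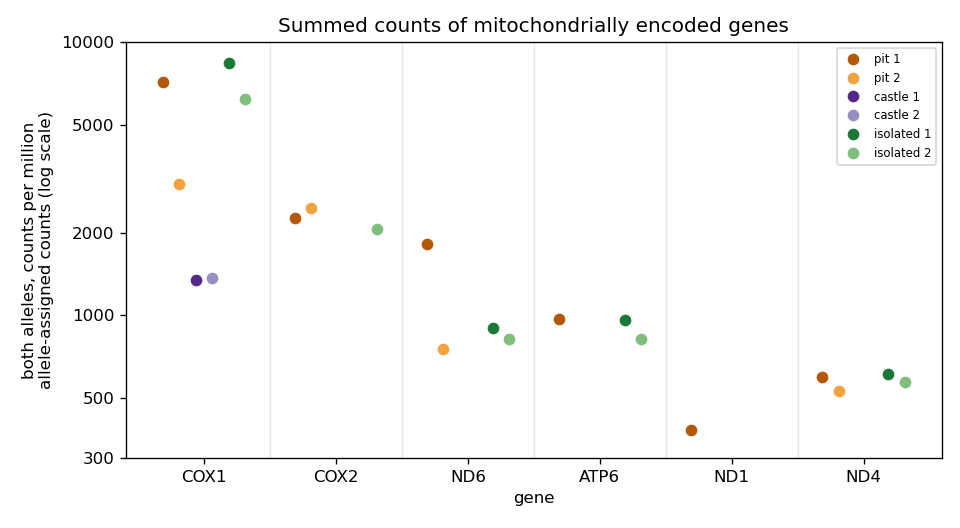
Counts of both alleles in CPM of the allele-assigned total of the library, on a log axis; each point is 1 library that listed the gene. COX1 lies at 3031 to 8427 CPM in the 4 pit digging and isolated libraries and at 1349 and 1366 in castle building; ND4, listed in those 4 libraries alone, lies between 529 and 611.

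In the test of summed counts, COX1 was lower in castle building without passing the threshold. The mean level scaled with TMM factors was 5930 ± 3266 CPM in pit digging (SD, n = 2), 1444 in castle building and 8220 ± 1890 in isolation (SD, n = 2). Pit digging against castle building gave a log2 difference of 2.04 ± 0.57 (SE; 4.11-fold; edgeR adjusted p = 0.12), where 4.69% of all genes passed. Castle building against isolation gave -2.51 ± 0.57 (5.69-fold; adjusted p = 0.0891), where 6.72% passed. With DESeq2 both passed, at adjusted p = 0.0126 and 0.000942, and the single castle building sample has no replicate check. The first difference was 1.31 without pit digging replicate 1. The oligodendrocyte markers mbp and mpz, 2 of 4 searched, summed to 829 to 831 CPM in castle building against 4816 to 5696 in the other libraries. The astroglial markers slc1a2 and ndrg2, the 2 of 5 listed in all libraries, summed to 4162 and 4163 CPM against 1599 to 2476. The astroglial marker fabp7 was not listed in all libraries and was left out. The microglial markers csf1r and cd74, 2 of 3 searched, summed to 79.4 to 80.0 against 134 to 222 CPM. The part of cell composition in the COX1 level was not tested.

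Pit digging against isolation gave a log2 difference of -0.47 ± 0.46 for COX1 (SE; edgeR adjusted p = 0.748). It was -1.19 without pit digging replicate 1 and -0.0049 without replicate 2. None of 6844 genes passed (0%; 129 by DESeq2; 676 had an unadjusted p under 0.05). In the fit of 4 libraries ND4 differed by -0.0031 ± 0.44 (adjusted p = 0.996) and ND6 by 0.65 ± 0.43 (adjusted p = 0.659), where 0% of genes passed (158 by DESeq2; 827 had an unadjusted p under 0.05). The ND6 value was -0.08 without pit digging replicate 1. The SE of ND4 leaves room for a change of more than 1.5-fold either way.

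The listed nuclear genes of the same pathway carried both alleles in near equal parts. Lists of nuclear respiratory chain subunits, complex IV assembly factors and genes that maintain and transcribe mitochondrial DNA held 153 symbols, of which 55 were listed in at least 1 library. Over 203 values of a gene in a library, the median C. virginalis share was 49.0%. The share ran from 34.8% (the complex I subunit ndufv3, pit digging replicate 2, total 69) to 68.4%. The highest share was that of ndufab1 in pit digging replicate 2 and of polg2 in isolated replicate 2, with a total of 19 each. Because a listing needs a minimum count on each allele, a nuclear gene with so small a total could not show an extreme share. The range thus depends in part on the listing rule. The lowest listed nuclear share was far above the highest mitochondrial value, 2.19% for ND4. No symbol searched for a nuclear subunit of complex IV, the partners of COX1 and COX2, was found in the tables used here.

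Of 6 nuclear complex I subunits tested over all samples, 1 favoured the C. virginalis allele, 0 the other allele and 5 did not pass, with a median log2 ratio of -0.13 against 0.05 for all genes, 8.21% of which passed. The accessory subunit ndufb3 had a C. virginalis share of 57.9% ± 1.51 (SD, n = 5), a log2 ratio of 0.45 ± 0.15 (SE; edgeR adjusted p = 0.026). For the accessory subunit ndufa8 the share was 58.0% ± 4.61 (adjusted p = 0.152), and for ndufs1, which holds iron-sulfur clusters, 47.1% ± 2.42 (adjusted p = 0.429). The ATP synthase subunit atp5e had 49.0% ± 3.75 (adjusted p = 0.98). None of 9 genes for maintenance and transcription of mitochondrial DNA passed, against the same 8.21% of all genes, and their median was -0.12. They included the single-strand binding protein ssbp1 (56.0% ± 6.53), the transcription factor tfb2m (46.2% ± 4.47) and tfam, which packages mitochondrial DNA (48.1% ± 5.05).

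**Figure D5:**
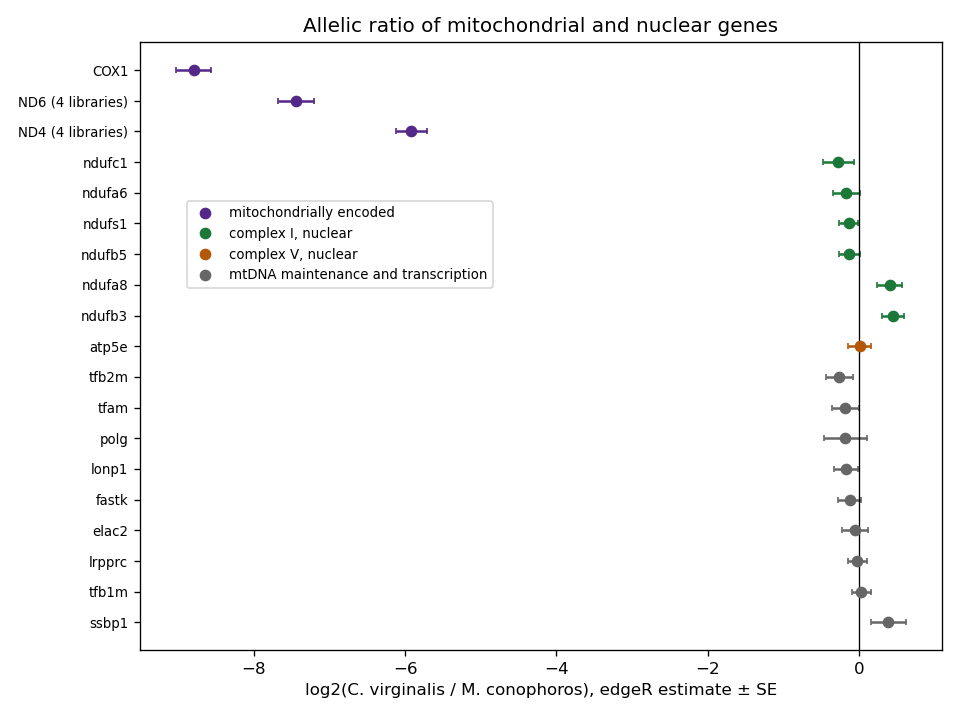
Log2 ratio of C. virginalis to M. conophoros counts (edgeR estimate, bars are SE) for the tested mitochondrial genes and the tested members of the nuclear lists; COX1 and the nuclear genes are from the fit of all samples, ND4 and ND6 from the fit of 4 libraries. The mitochondrial genes lie between -8.80 and -5.92 and the nuclear genes between -0.28 and 0.45.

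Several nuclear genes had summed levels that were also lowest in castle building. In castle building against isolation, 1 of 6 complex I subunits, 1 of 1 complex V subunit and 1 of 9 maintenance and transcription genes were lower and 0 were higher, where 4.28% of all genes were lower. The log2 difference was -1.93 for ndufb3 (edgeR adjusted p = 0.0442), -2.01 for atp5e (adjusted p = 0.0474) and -2.33 for tfam (adjusted p = 0.0448). Castle building is 1 sample in these tests, with the spread taken from the other groups, and the count of genes passing fell from 460 to 0 when any 1 pit digging or isolated library was left out. Others went the opposite way without passing, as ndufs1 at 0.71 (adjusted p = 0.18). The median was -0.67 for the complex I list and 0.31 for the maintenance list, against -0.05 for all genes. Between pit digging and castle building the log2 difference was 1.68 for ndufb3, 2.12 for atp5e and 2.18 for tfam, higher in pit digging. Like the rest of these lists, they did not pass there. The difference was positive for 3 of 6 complex I subunits, 1 of 1 complex V subunit and 4 of 9 maintenance and transcription genes. Between pit digging and isolation no gene of these lists passed, where 0% of all genes passed.

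By the pattern of summed levels over the 5 samples, the genes with a symbol most like COX1 were htatsf1, arl6ip4, slc30a5, mrps17 and mtfr1l. Their Pearson r with COX1, on log2(TMM-scaled CPM + 1), was 0.994 to 0.997 (n = 5). These values describe the best of many genes over 5 points that share library depth and scaling, 1 of them the lone castle building sample.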

How the data were processed

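Per the labels' protocols, Trizol was used for the RNA of whole brains and Illumina libraries were made from it. The authors deposited, for each of the libraries, read counts per gene and allele, without normalization, and the log2 ratio of the 2 counts, per the file headers. That deposited log2 ratio equalled log2 of the counts to within 5.33e-15 and was not used further. The submitters' processing notes name STAR 2.4. Not given in the sources used here are the build, annotation, informative sites, allele counter and strand, so the counts cannot be checked for bias towards a reference allele. A deposited table of the 6848 genes listed in all libraries had the same counts (0 differing values in 12 columns).

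Here, allele counts entered the quasi-likelihood test of edgeR 4.0.16 (R 4.3.3) with an intercept per sample, an allele coefficient per paradigm and the same library size for both alleles of a sample. The mean of the 3 allele coefficients and their differences were tested. Summed counts were scaled by TMM and compared between paradigms. Each fit had 2 residual degrees of freedom. Castle building was the rounded mean of its libraries. Genes needed a mean total of 20, which left 6844, or 8254 in the fits of 4 libraries. Adjusted p (Benjamini-Hochberg, threshold 0.05) is over all genes of a fit. SE are Wald errors from the fitted means and the quasi-dispersion, which was not allowed below 1. That limit was set for the SE only and not for the test, so an SE and its p can rest on different spreads. Intervals are exact binomial. The procedure was run on simulated data, in which summed counts were set to vary less between samples than the real ones. That run thus cannot tell how well the test of summed counts works at the spread of these data.

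The members and lists were chosen with earlier results of these data known. The text names every member, up to 3 genes per list with the smallest p, any list member that passed, and the 5 genes nearest to COX1 by share and by level. Genes with the next lowest share in a library were named after their values were seen. Alternatives were DESeq2 1.42.0, other filters and scalings, castle building as 2 samples, a replicate block, the 4 libraries alone and each library left out. No sequences are shown, since no reference was used.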

Additional observations from a re-analysis of the deposited data

How the results depend on the processing

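The 13 results for COX1, ND4 and ND6 were recomputed 141 times. In 130 cases the direction and the side of the threshold were kept, in 6 the value passed only under the alternative, and in 5 a difference that had not passed changed sign. The allelic ratio of COX1 over all samples, and those of ND4 and ND6 over the pit digging and isolated samples, kept both under every alternative. COX1 was higher in pit digging than in castle building by 1.99 with DESeq2, 2.04 with castle building as 2 samples and 1.93 with the replicate block as well (log2; adjusted p = 0.0126, 0.021 and 0.0245). Castle building against isolation gave -2.47, -2.51 and -2.46 in the same order (adjusted p = 0.000942, 0.0124 and 0.016). The summed ND4 difference between pit digging and isolation was 0.0021 with DESeq2 and -0.0621 to 0.0571 with a library left out. For ND6 it was -0.0793 to 1.13, and the ND6 allelic difference -0.31 to 0.97. For COX1 the left-out values were -8.86 to -8.77 over all samples, -0.39 to -0.18, 0.32 to 0.58 and 0.04 to 0.23 for the allelic differences (pit digging against castle building, castle building against isolation, pit digging against isolation), and 1.31 to 2.49, -2.73 to -2.25 and -1.19 to -0.0049 for the sums in that order.

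Counts of genes passing moved more. Over all samples 562 genes had unequal alleles, against 263 with DESeq2, 1093 with castle building as 2 samples and 1113 with the replicate block; without isolated replicate 1 or 2 there were 342 or 293 (left-out range 293 to 618). For pit digging against castle building the 11 genes became 23 with TMM between alleles, 273 with castle building as 2 samples and 243 with the block (left-out range 7 to 43: 43 without pit digging replicate 2, 17 without castle building replicate 1, 7 without isolated replicate 1 or 2). For castle building against isolation the 18 became 8 with a mean total of at least 100, 28 with TMM between alleles, 209 with castle building as 2 samples and 200 with the block (left-out range 4 to 32: 30 and 32 without pit digging replicates 1 and 2, 6 and 4 without isolated replicates 1 and 2). For pit digging against isolation the 0 became 1 with DESeq2 and 4 with the block (left-out range 0 to 12: 3 and 12 without pit digging replicates 1 and 2, 1 without isolated replicate 1). Summed counts gave 321, 460 and 0 genes for the 3 comparisons in the order above. They gave 841, 924 and 129 with DESeq2, 2648, 2734 and 169 with castle building as 2 samples, and 2118 and 2196 with the block for the first 2. With a library left out they ranged from 0 to 331, 0 to 469 and 0 to 0, and were 0 without any 1 of the pit digging or isolated libraries, which leaves 1 residual degree of freedom. Counting the castle building libraries as 2 samples adds a pair with almost no spread. Otherwise the cause was not tested. Same-numbered pit digging and isolated libraries did not deviate together (correlation -0.0944 for sums and -0.0195 for allelic ratios, over 8254 genes), so the replicate numbers were not taken as pairs. Counts of 6 to 49 on the C. virginalis allele limit the precision of every share given for the mitochondrial genes.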

Other observations

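The libraries also held 3 identifiers that begin with APK84, namely APK84_gr01, APK84_gt02 and APK84_gt11. The sources used here do not annotate them, and they were singled out after their values were seen. Whether they are mitochondrial rows is thus not known, and the statements on the 6 mitochondrial genes do not cover them. APK84_gr01 had C. virginalis shares of 0.502% in pit digging replicate 1, 1.42 and 1.45% in the castle building libraries, and 3.26 and 1.14% in isolated replicates 1 and 2. Its total ranged from 460 counts in isolated replicate 1 to 4781 in pit digging replicate 1. APK84_gt11 lay at the other extreme, with 97.8 and 97.1% in pit digging replicates 1 and 2 and 97.7 and 98.4% in isolated replicates 1 and 2, on totals of 273 to 589 counts. APK84_gt02 was listed only in pit digging replicate 1, with 105 C. virginalis and 6 M. conophoros counts. At the high end, 5 to 25 genes per library had a C. virginalis share over 95%, against 2 to 7 under 5%.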
